A study of Rattus norvegicus with 6 samples.

Results

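The axon guidance genes measured in cultured neural stem and progenitor cells (NSPCs) of the adult rat hippocampus comprised 71 of the 17245 genes tested: 20 semaphorins, 11 plexins and neuropilins, 7 ephrins, 13 Eph receptors, 7 Slits and Robos, and 13 netrins and netrin receptors. They were picked by the gene symbols in the annotation of the array. The names also caught Unc50, a Golgi protein, and Unc5cl, neither of which is a netrin receptor, and without them 69 genes remained. The NSPCs were grown as neurospheres, floating clusters of dividing cells, and their total RNA was hybridized to Affymetrix Rat Gene 1.1 ST arrays. The 3 Q-NSPC samples had received fibroblast growth factor 2 (FGF2) at 10 ng/ml together with bone morphogenetic protein 4 (BMP4) at 50 ng/ml for 4 days in vitro, which places the cells in quiescence, a reversible arrest outside the cell cycle. The 3 A-NSPC samples had received FGF2 alone at 10 ng/ml for the same 4 days and proliferated. The samples were labelled as biological replicates, without stating whether these were separate isolations from animals, so p-values cover the spread between these samples. The comparison asks which guidance cues and receptors differ between quiescent and proliferating cells.

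Axon guidance cues are secreted or membrane-bound proteins that attract or repel the growing tip of an axon, and the same proteins steer migrating cells. Semaphorins signal through plexins, with neuropilins as binding partners for most of the secreted class. Ephrins and Eph receptors are both held at the cell surface, so they act between touching cells and can signal in both directions. Slits bind Robo receptors and are best known as repellents. Netrins attract through Dcc and Neo1 and repel when Unc5 receptors take part. In the hippocampus and its neurogenic niche, guidance proteins are known for patterning axons and dendrites, for guiding new neurons and for setting contacts between stem cells and their neighbours.

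Because the study concerned the transcription factor LEF1 and its partner NFIX, the 250 bases upstream of the annotated start are shown for the 3 genes that passed the test, changed at least 2-fold and had an entry among the RefSeq promoters of the GRCr8 rat assembly. The sequences of Sema3c (chr4:18699628-18699877, minus strand), Efna5 (chr9:110042188-110042437, minus strand) and Dcc (chr18:68247675-68247924, minus strand) read 5′ to 3′ on the gene's strand. Capitals mark the LEF1 cores CTTTGT and CTTTGA and the NFI core TTGGC, each searched on both strands, so that a reverse-strand NFI match reads GCCAA.
Sema3c: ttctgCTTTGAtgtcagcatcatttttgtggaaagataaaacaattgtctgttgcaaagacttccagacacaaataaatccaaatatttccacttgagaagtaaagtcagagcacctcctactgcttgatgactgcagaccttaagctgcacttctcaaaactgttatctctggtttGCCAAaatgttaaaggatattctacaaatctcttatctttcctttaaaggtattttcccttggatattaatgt
Efna5: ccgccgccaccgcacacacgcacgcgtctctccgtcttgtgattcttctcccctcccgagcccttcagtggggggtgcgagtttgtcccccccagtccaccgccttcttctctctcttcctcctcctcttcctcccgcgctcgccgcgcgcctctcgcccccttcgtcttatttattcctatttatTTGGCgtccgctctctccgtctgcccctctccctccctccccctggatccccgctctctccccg
Dcc: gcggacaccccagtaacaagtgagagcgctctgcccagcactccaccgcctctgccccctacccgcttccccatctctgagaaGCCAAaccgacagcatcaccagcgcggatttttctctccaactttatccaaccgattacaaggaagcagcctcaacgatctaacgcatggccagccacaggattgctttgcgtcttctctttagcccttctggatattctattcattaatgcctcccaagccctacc
None of the 3 held CTTTGT. Sema3c held 1 CTTTGA, 245 to 240 bases before the start, and 1 NFI core, 73 to 69 bases before it. The single NFI core lay 64 to 60 bases before the start of Efna5 and 167 to 163 bases before that of Dcc. Of the 71 genes, 57 had a promoter entry, and CTTTGT was present in 8 of these (14%), against 16% of all 27457 promoters. CTTTGA was present in 5 of the 57 (8.77%), against 13.8% of all promoters. The NFI core was present in 22 of the 57 (38.6%), against 40.3% of all promoters. The GC-rich motif GGCGCC, which can be bound by the SMAD factors that relay BMP signals, was present in 14 of the 57 (24.6%), against 9.24% of all promoters. Median GC content was 61.6% in the 57 promoters and 52% in all promoters. Matches are descriptions of letters and not of binding.

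Guidance genes were higher in Q-NSPC more often than lower. In limma with Benjamini-Hochberg adjustment over all 17245 genes, 18 of the 71 rose in Q-NSPC, 6 fell and 47 did not pass an adjusted p of 0.05. The passing share was 33.8%, against 14.1% of all genes. In the upward direction it was 25.4%, against 7.91% of all genes, and in the downward direction 8.45%, against 6.20% of all genes. The median difference, Q-NSPC minus A-NSPC on the log2 scale, was 0.20 over the 71 genes and 0.01 over all genes, and the median size of the difference, sign aside, was 0.37 over the 71 genes and 0.16 over all genes. In bulk RNA more cells of a type and more RNA per cell cannot be told apart. The mean of Efnb2, Epha1, Epha5 and Ntng1 was below a log2 value of 6, and all 24 passing genes were brighter than that. The 3 arrays of one group lay wholly above or below those of the other for 38 genes (53.5%, against 34.0% of all genes), with Q-NSPC above in 28 and below in 10. At an unadjusted p under 0.05 there were 38 genes, 26 higher and 12 lower, against 29.5% of all genes. Of the 24 passing genes 5 changed at least 2-fold, Sema3c, Epha4, Efna5 and Slit1 upward and Dcc downward. Of all 2433 genes that passed, 575 changed at least 2-fold. Among the 36 ligands 11 rose and 3 fell. Among the 35 genes counted as receptors, which by name include Unc50 and Unc5cl, 7 rose and 3 fell.

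**Figure D1:**
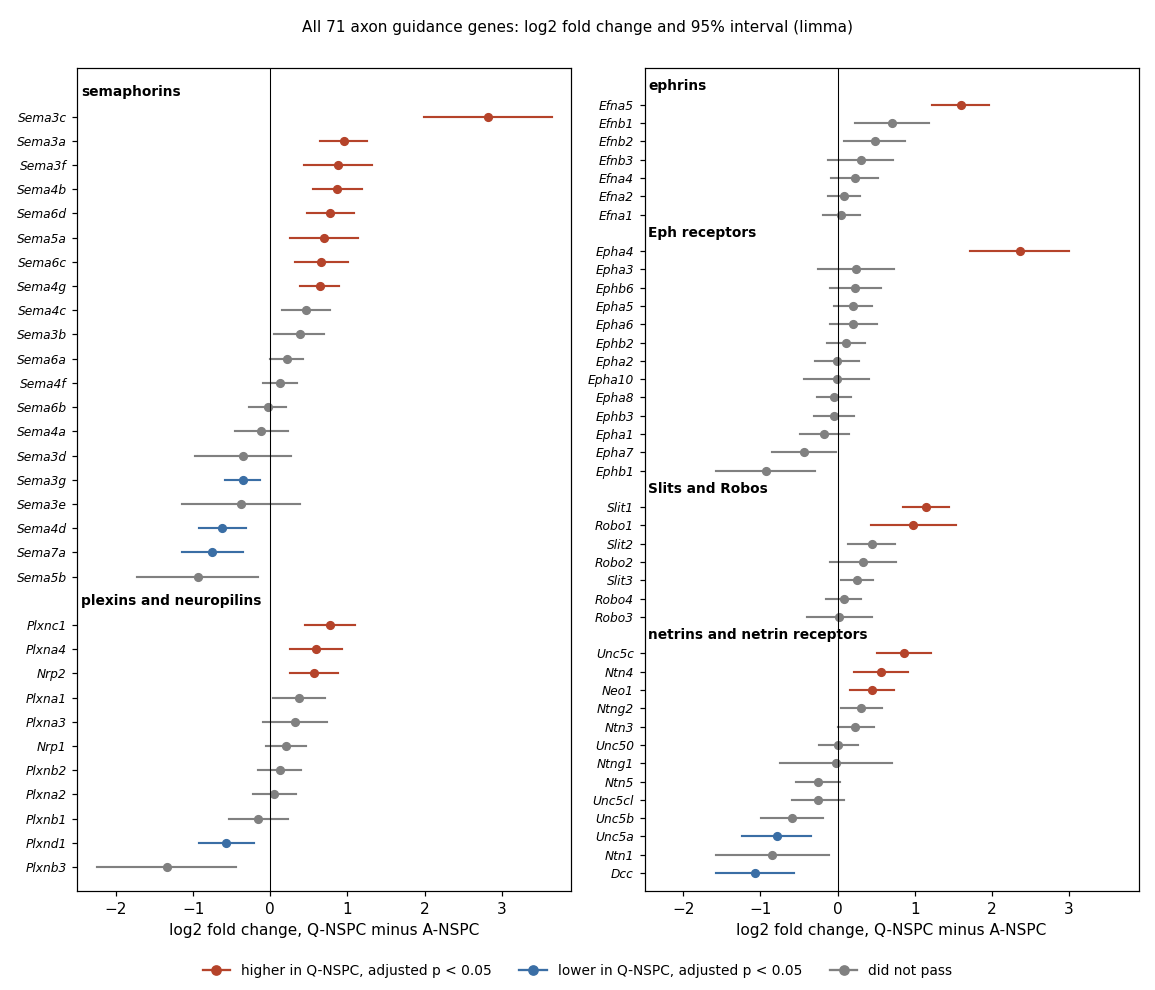
Difference in log2 expression (Q-NSPC minus A-NSPC, horizontal axis) of each of the 71 guidance genes, grouped by family, with lines for the 95% confidence interval, red for genes that rose, blue for genes that fell and grey for genes that did not pass. Sema3c, at 2.82, and Epha4, at 2.36, lie farthest to the right, and 18 of the 24 colored points lie to the right of 0.

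One Q-NSPC array stood nearer to A-NSPC than the others. On the first principal component of the guidance genes, which held 81.7% of their variance, Q-NSPC replicates 1, 2 and 3 stood at 0.59, 4.10 and 4.25, and A-NSPC replicates at -2.84, -3.12 and -2.99. The first component of all genes held 71.1% and placed Q-NSPC replicate 1 at 5.29, between the other Q-NSPC arrays at 38.90 and 36.41 and the A-NSPC arrays at -27.52, -25.00 and -28.10. Replicate 1 was the Q-NSPC array nearest to A-NSPC in 20 of the 24 passing genes, and its change was a median 68.0% of the mean change of the other Q-NSPC arrays for genes that rose and 43.5% for genes that fell. Over all 2433 genes that passed, that array was nearest in 2027, with medians of 61.1% and 54.4%. Leaving it out, 33 guidance genes passed (46.5%, against 23.7% of all genes), 23 of them among the original 24, and Neo1 was the gene lost. When another Q-NSPC array was dropped, 11 genes passed in the absence of replicate 2 (15.5%, against 4.48% of all genes) and 7 in the absence of replicate 3 (9.86%, against 2.71%). When an A-NSPC array was dropped, 8 genes passed in the absence of replicate 1 (11.3%, against 2.43% of all genes), 12 in that of replicate 2 (16.9%, against 6.94%) and 8 in that of replicate 3 (11.3%, against 2.86%). Sema3a, Sema3c, Efna5, Epha4 and Slit1 passed in all 6 of these fits. By the methods' unpaired t-test with the same adjustment no gene passed, guidance or other, and at an unadjusted p under 0.05 that test had 23 guidance genes higher and 6 lower (40.8%, against 24.6% of all genes).

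**Figure D2:**
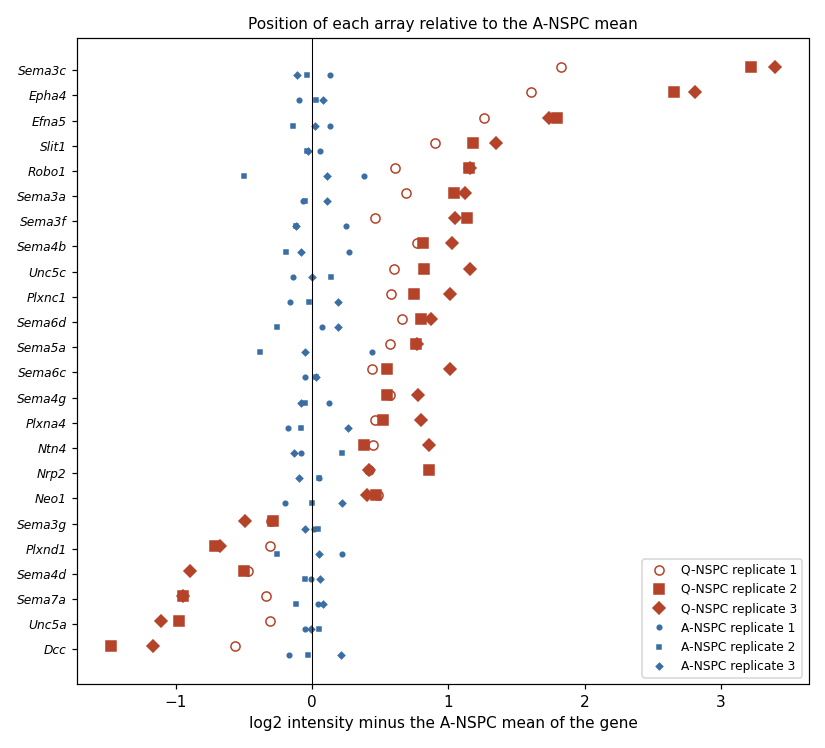
Log2 value of each array minus the A-NSPC mean of the same gene (horizontal axis), for the 24 guidance genes that passed, with Q-NSPC arrays in red (replicate 1 as open circles) and A-NSPC arrays in blue. The open circles lie nearer to 0 than the other Q-NSPC points in 20 of the 24 genes.

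Some markers of neural cell types differed between the groups as well. The stem cell factor Sox2 averaged 12.52 in Q-NSPC and 12.28 in A-NSPC, a difference of 0.24 that did not pass (limma adjusted p = 0.114). Of 12 stem cell markers 6 had differences above 0 and 6 below, and Gfap, Pax6 and Msi1 rose (25.0% passing, against 14.1% of all genes). Hes1 (-1.06), Fabp7 (-0.65), Nes (-0.57) and Notch1 (-0.43) had the lowest differences and did not pass. Of 11 neuron markers 7 rose, among them Tubb3 and Dcx, and Rbfox3 fell (72.7% passing, against 14.1% of all genes). Their summed level was 14.66 to 15.25 in Q-NSPC and 13.98 to 14.05 in A-NSPC (log2 of the summed linear values). Pdgfra and Olig2 fell among 9 oligodendrocyte lineage markers (22.2% passing, against 14.1% of all genes). The summed level of these 9 was 11.89 to 13.43 in Q-NSPC and 13.60 to 13.76 in A-NSPC. Gfap, which is also an astrocyte marker, rose by 1.85, or 3.61-fold (limma adjusted p = 0.00374). Of 7 other astrocyte markers Aldh1l1 and Glul were not among the genes tested and none of the other 5 passed (limma, 1 at an unadjusted p under 0.05), with sums of 13.53 to 13.64 in Q-NSPC and 13.20 to 13.35 in A-NSPC. None passed among 9 microglia, 6 endothelium and 8 mural and fibroblast markers, with 0 at an unadjusted p under 0.05. The unpaired t-test passed 0 of all genes and so adds nothing here. The microglia sums were 10.01 to 10.15 in Q-NSPC and 10.00 to 10.11 in A-NSPC, the endothelium sums 9.15 to 9.29 in Q-NSPC and 9.08 to 9.18 in A-NSPC, and the mural and fibroblast sums 9.96 to 10.17 in Q-NSPC and 10.00 to 10.25 in A-NSPC. Array values have no true 0, so absence of a marker cannot be read from them. The part of these cell types in the guidance results was not tested.

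Secreted semaphorins held the largest change of the family. Of the 7 class 3 semaphorins, 3 rose and 1 fell (57.1% passing, against 14.1% of all genes). Sema3c, a secreted cue that repels some axons and attracts others, measured 8.42, 9.81 and 9.99 (log2) in Q-NSPC replicates 1, 2 and 3, and 6.72, 6.55 and 6.48 in A-NSPC. All Q-NSPC arrays lay above all A-NSPC arrays, with replicate 1 the lowest of its group. The difference was 2.82 ± 0.361 (SE), or 7.07-fold (limma adjusted p = 0.00509), and 3.32 with Q-NSPC replicate 1 left out. Sema3a, a repellent for many axons, measured 12.30, 12.65 and 12.73 in Q-NSPC and 11.54, 11.56 and 11.72 in A-NSPC. Its groups did not overlap and differed by 0.95 ± 0.132, or 1.93-fold (limma adjusted p = 0.00628). Sema3f, which binds neuropilin 2, measured 8.65, 9.33 and 9.24 in Q-NSPC and 8.44, 8.07 and 8.07 in A-NSPC. The groups stood apart by 0.88 ± 0.193 (limma adjusted p = 0.024), with a gap of little width between Q-NSPC replicate 1 and A-NSPC replicate 1, and Sema3f passed in 1 of the 6 fits that left out an array, that without Q-NSPC replicate 1. Sema3g went the other way, at 7.30, 7.31 and 7.11 in Q-NSPC and 7.61, 7.64 and 7.55 in A-NSPC. Every Q-NSPC array was below every A-NSPC array, by -0.36 ± 0.099 (limma adjusted p = 0.0473), and it likewise passed only without Q-NSPC replicate 1. Sema3b (0.38), Sema3d (-0.35) and Sema3e (-0.38) did not pass, and of these only Sema3b had arrays that did not overlap and only Sema3e passed without Q-NSPC replicate 1.

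Membrane semaphorins of classes 4 to 7 numbered 13, of which 5 rose and 2 fell (53.8% passing, against 14.1% of all genes). Sema4b measured 9.34, 9.38 and 9.60 in Q-NSPC and 8.84, 8.38 and 8.49 in A-NSPC. All Q-NSPC arrays were higher, by 0.87 ± 0.140 (limma adjusted p = 0.00978), and Sema4b passed in 5 of the 6 fits, not without A-NSPC replicate 3. Sema4g measured 8.55, 8.53 and 8.76 in Q-NSPC and 8.10, 7.93 and 7.90 in A-NSPC, and Sema6d, a ligand of plexin A1, measured 11.02, 11.16 and 11.23 in Q-NSPC and 10.43, 10.10 and 10.55 in A-NSPC. Neither gene's groups overlapped, and the differences were 0.64 ± 0.109 for Sema4g (adjusted p = 0.012) and 0.78 ± 0.135 for Sema6d (limma adjusted p = 0.0125). Both passed in 4 of the 6 fits, Sema4g not without Q-NSPC replicate 3 or A-NSPC replicate 3, and Sema6d not without Q-NSPC replicate 3 or A-NSPC replicate 1. A further probe set, shared by Sema4g and Mrpl43, had a difference of -0.34 (limma adjusted p = 0.0505), opposite in sign to that of Sema4g alone. Sema6c measured 8.03, 8.14 and 8.60 in Q-NSPC and 7.54, 7.62 and 7.62 in A-NSPC. Its Q-NSPC arrays were all higher, by 0.66 ± 0.150 (limma adjusted p = 0.0266). Sema5a, a transmembrane semaphorin with thrombospondin repeats, measured 8.98, 9.17 and 9.18 in Q-NSPC and 8.85, 8.03 and 8.36 in A-NSPC. A-NSPC replicate 1 came close to the Q-NSPC arrays, and the difference was 0.70 ± 0.193 (limma adjusted p = 0.0484).

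The semaphorins that fell among the membrane classes were Sema4d and Sema7a. Sema4d, a ligand of plexin B1 that also has roles in immune cells, measured 9.34, 9.31 and 8.91 in Q-NSPC and 9.80, 9.76 and 9.87 in A-NSPC. The A-NSPC arrays were close together and above all Q-NSPC arrays, a difference of -0.63 ± 0.131 (limma adjusted p = 0.0212). Sema7a, a lipid-anchored semaphorin that binds integrins and plexin C1, measured 9.56, 8.95 and 8.95 in Q-NSPC and 9.94, 9.78 and 9.98 in A-NSPC. Q-NSPC replicate 1 lay between the other Q-NSPC arrays and the A-NSPC arrays, and the difference was -0.75 ± 0.171 (limma adjusted p = 0.027). Sema6c and Sema7a passed in 1 of the 6 fits, that without Q-NSPC replicate 1, while Sema5a also passed without A-NSPC replicate 1 and Sema4d also without Q-NSPC replicate 2. Of the 6 membrane semaphorins that did not pass, Sema4c (0.46, limma adjusted p = 0.0585) and Sema6a (0.21) had higher, non-overlapping Q-NSPC arrays. Sema5b measured 9.86, 8.37 and 8.54 in Q-NSPC and 9.99, 9.73 and 9.87 in A-NSPC, a difference of -0.94 (limma adjusted p = 0.107). Here Q-NSPC replicate 1 sat among the A-NSPC arrays, and without it Sema5b passed, as did Sema4c. Sema4a (-0.12), Sema4f (0.13) and Sema6b (-0.03) overlapped between groups.

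Among the semaphorin receptors 3 of 11 rose (27.3%, against 7.91% of all genes) and 1 fell (9.09%, against 6.20%). Plxnc1, the receptor of Sema7a, measured 10.98, 11.15 and 11.41 in Q-NSPC and 10.24, 10.38 and 10.59 in A-NSPC. The groups did not overlap and differed by 0.78 ± 0.142 (limma adjusted p = 0.0141), so the receptor was higher where its ligand Sema7a was lower. Plxna4, which relays class 3 semaphorin signals, measured 8.02, 8.08 and 8.36 in Q-NSPC and 7.38, 7.48 and 7.82 in A-NSPC. Every Q-NSPC array was higher, by 0.59 ± 0.146 (limma adjusted p = 0.0338). Nrp2, the neuropilin that binds Sema3f and Sema3c, measured 10.01, 10.45 and 10.01 in Q-NSPC and 9.64, 9.64 and 9.49 in A-NSPC. Its difference was 0.56 ± 0.138 (limma adjusted p = 0.033), with replicate 2 the highest of the Q-NSPC arrays. Nrp1, the neuropilin that binds Sema3a, had a difference of 0.20 and did not pass. Plxnd1, a receptor of Sema3e, fell, with 8.59, 8.19 and 8.22 in Q-NSPC and 9.12, 8.64 and 8.95 in A-NSPC. Q-NSPC replicate 1 and A-NSPC replicate 2 were close to each other, and the difference was -0.57 ± 0.159 (limma adjusted p = 0.0486).

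Plxnb3 had the lowest difference of all 71 genes and did not pass. It measured 10.06, 8.29 and 8.63 in Q-NSPC and 10.42, 10.21 and 10.36 in A-NSPC. The groups did not overlap, and Q-NSPC replicate 1 was close to the A-NSPC arrays and far from the other Q-NSPC arrays. The difference was -1.34 with a 95% interval of -2.24 to -0.44 (limma adjusted p = 0.0562), and the gene passed without that array. The other plexins that did not pass were Plxna1 (0.37), Plxna3 (0.32), Plxnb2 (0.12), Plxnb1 (-0.16) and Plxna2 (0.05), all with overlapping groups, of which Plxna1 and Plxnb1 passed without Q-NSPC replicate 1. Plxnc1 passed in 4 of the 6 fits, not without Q-NSPC replicate 3 or A-NSPC replicate 1. Plxna4, Plxnd1 and Nrp2 passed when Q-NSPC replicate 1 was dropped, Plxna4 also when A-NSPC replicate 3 was dropped and Plxnd1 also when A-NSPC replicate 2 was.

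**Figure D3:**
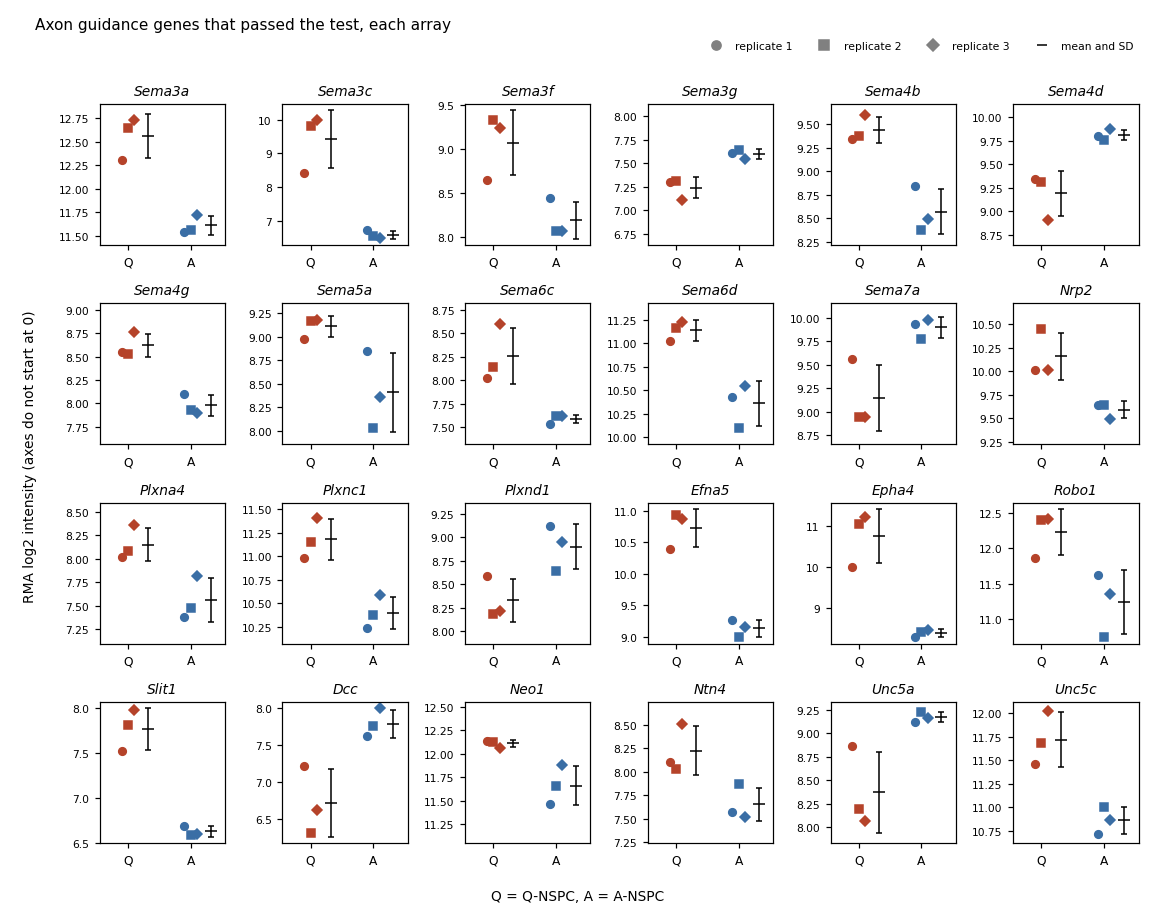
Log2 expression of each of the 24 guidance genes that passed the test, 1 panel per gene, with Q-NSPC arrays to the left of A-NSPC arrays and black marks at the mean and SD of each group. In every panel the groups do not overlap, and in 20 of them Q-NSPC replicate 1 is the Q-NSPC array nearest to A-NSPC.

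In the ephrin and Eph families 1 ligand and 1 receptor passed, and each was among the largest changes. That was 14.3% of the ephrins and 7.69% of the Eph receptors, against 14.1% of all genes. Efna5, a lipid-anchored ephrin that repels axons in topographic mapping, measured 10.39, 10.93 and 10.87 in Q-NSPC and 9.26, 8.99 and 9.15 in A-NSPC. All Q-NSPC arrays were above all A-NSPC arrays by 1.60 ± 0.157, or 3.02-fold (limma adjusted p = 0.00229). Epha4, a receptor that binds both ephrin classes and Efna5 among them, measured 10.00, 11.05 and 11.20 in Q-NSPC and 8.29, 8.42 and 8.47 in A-NSPC. The groups lay far apart even for Q-NSPC replicate 1, and the difference was 2.36 ± 0.279, or 5.13-fold (limma adjusted p = 0.00409). Over the fits that left out an array it ran between 2.13 and 2.73 for Epha4 and between 1.49 and 1.77 for Efna5.

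None of the other 6 ephrins passed, though all 7 had differences above 0, as did 9062 of all 17245 genes. Efnb1, a transmembrane ephrin, measured 10.24, 10.77 and 11.01 in Q-NSPC and 10.26, 9.80 and 9.84 in A-NSPC. Replicates 1 of both groups were nearly equal, and the difference of 0.70 (limma adjusted p = 0.0589) passed without Q-NSPC replicate 1. Efnb2, whose mean was under a log2 value of 6, differed by 0.48, and Efnb3 (0.30), Efna4 (0.22), Efna2 (0.08) and Efna1 (0.05) had overlapping groups. Of the 12 other Eph receptors, Ephb1 came nearest to passing, with 10.61, 9.37 and 10.36 in Q-NSPC and 11.04, 11.12 and 10.98 in A-NSPC. All its Q-NSPC arrays were lower, replicate 2 most of all, and the difference was -0.93 with an interval of -1.57 to -0.29 (limma adjusted p = 0.0613), which passed without Q-NSPC replicate 1, as Efnb2 did. Epha7 (-0.43) and Epha5 (0.20) did not overlap between groups but did not pass. The differences of the other 9 were between -0.17 and 0.24, and the median over the 13 Eph receptors was -0.01. These 9 were Epha1, Epha2, Epha3, Epha6, Epha8, Epha10, Ephb2, Ephb3 and Ephb6, each overlapping between groups.

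Slit1 and Robo1 rose, which was 28.6% of the Slits and Robos, against 14.1% of all genes passing in either direction. All 7 had differences above 0, as did 9062 of all 17245 genes, but 5 of the 7 did not pass. Slit1, a secreted repellent, measured 7.53, 7.81 and 7.98 in Q-NSPC and 6.69, 6.59 and 6.60 in A-NSPC. The A-NSPC arrays were tightly grouped under all Q-NSPC arrays, and the difference was 1.15 ± 0.127, or 2.21-fold (limma adjusted p = 0.00334). Its receptor Robo1 measured 11.86, 12.40 and 12.41 in Q-NSPC and 11.63, 10.75 and 11.36 in A-NSPC. The groups were separated by the small step between Q-NSPC replicate 1 and A-NSPC replicate 1, and the difference was 0.98 ± 0.238, or 1.97-fold (limma adjusted p = 0.0326). Robo1 passed in 1 of the 6 fits, that without Q-NSPC replicate 1, and its difference ran between 0.73 and 1.17 over these fits. Slit2 measured 6.44, 6.42 and 6.57 in Q-NSPC and 5.83, 5.99 and 6.28 in A-NSPC. All Q-NSPC arrays were higher, and the difference of 0.44 had an interval of 0.14 to 0.74 (limma adjusted p = 0.0595). Slit3 (0.25) had non-overlapping groups and did not pass, and Robo2 (0.33), Robo4 (0.08) and Robo3 (0.02) overlapped.

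Netrin receptors changed in both directions. Of the 13 netrins and netrin receptors 3 rose (23.1%, against 7.91% of all genes) and 2 fell (15.4%, against 6.20%). Dcc, the attractive netrin receptor, measured 7.22, 6.31 and 6.62 in Q-NSPC and 7.62, 7.76 and 8.00 in A-NSPC. Every Q-NSPC array was lower, replicate 1 least, and the difference was -1.07 ± 0.220, or 2.10-fold lower (limma adjusted p = 0.0198). Its relative Neo1, which also binds repulsive guidance molecules, measured 12.14, 12.13 and 12.06 in Q-NSPC and 11.46, 11.66 and 11.88 in A-NSPC. The Q-NSPC arrays were nearly equal and above all A-NSPC arrays, with a difference of 0.44 ± 0.123 (limma adjusted p = 0.0479), and Neo1 passed in none of the 6 fits that left out an array, where its difference was 0.34 to 0.55.

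The Unc5 receptors, which turn the netrin response to repulsion, divided likewise. Unc5c measured 11.46, 11.68 and 12.02 in Q-NSPC and 10.72, 11.00 and 10.86 in A-NSPC. All Q-NSPC arrays were higher, by 0.86 ± 0.154 (limma adjusted p = 0.0137). Unc5a measured 8.86, 8.19 and 8.06 in Q-NSPC and 9.12, 9.22 and 9.16 in A-NSPC. Its Q-NSPC arrays were all lower, by -0.79 ± 0.194 (limma adjusted p = 0.0333), with replicate 1 nearest to A-NSPC. Unc5b (-0.59, limma adjusted p = 0.0583) had lower, non-overlapping Q-NSPC arrays and did not pass, though it did when A-NSPC replicate 2 was dropped. Unc5cl (-0.25) and Unc50 (0.01), which are not netrin receptors, overlapped between groups. Unc5c passed in 4 of the 6 fits, failing when A-NSPC replicate 1 or 3 was dropped, while Dcc, Unc5a and Ntn4 passed only without Q-NSPC replicate 1.

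Of the netrins themselves only Ntn4, a netrin found in basement membranes, passed. It measured 8.10, 8.03 and 8.51 in Q-NSPC and 7.57, 7.87 and 7.52 in A-NSPC. The Q-NSPC arrays were higher throughout, by 0.56 ± 0.154 (limma adjusted p = 0.0465). Ntn1, the classical secreted netrin, measured 9.82, 8.36 and 8.69 in Q-NSPC and 9.79, 9.87 and 9.74 in A-NSPC. Q-NSPC replicate 1 was level with A-NSPC while the other Q-NSPC arrays were lower, and the difference of -0.85 (interval -1.58 to -0.11, limma adjusted p = 0.121) passed without that array. A probe set shared by Ntn1 and Mfap1al1 had a difference of -0.09. Ntng2 (0.31) and Ntn3 (0.23) had higher, non-overlapping Q-NSPC arrays without passing, and Ntn5 (-0.25) and Ntng1 (-0.02) overlapped.

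Genes that act with these cues or carry their signals inside the cell were also higher in Q-NSPC more often than lower. Of 59 listed effectors and partners 55 were measured, and 12 rose, 4 fell and 39 did not pass. That was 29.1% passing, against 14.1% of all genes, with a median difference of 0.14. In the upward direction the share was 21.8%, against 7.91% of all genes, and in the downward direction 7.27%, against 6.20%. Flrt1, a membrane protein of the family that binds Unc5 receptors, measured 9.05, 9.42 and 9.80 in Q-NSPC and 8.04, 7.53 and 8.01 in A-NSPC. Its groups lay apart by 1.56 ± 0.209, or 2.95-fold (limma adjusted p = 0.00564). Lrrc4c, which binds a netrin G, rose by 0.54. Among kinases that act on the cytoskeleton, Pak3 rose by 1.54, Limk2 by 0.71 and Limk1 by 0.51, the LIM kinases being known to inactivate cofilin. The exchange factors Vav3 and Vav2, which switch on Rac proteins downstream of Eph receptors, rose by 1.32 and 0.79. Dpysl5, of the collapsin response mediator family that relays semaphorin signals, rose by 1.12, and the actin-binding Ablim1 rose by 0.89. Ptk2, the focal adhesion kinase that acts in netrin signalling, had a difference of -0.67, the netrin receptor Dscam one of -0.58, and Chn1, a Rac inactivator that acts downstream of Epha4, one of -0.49.

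**Figure D4:**
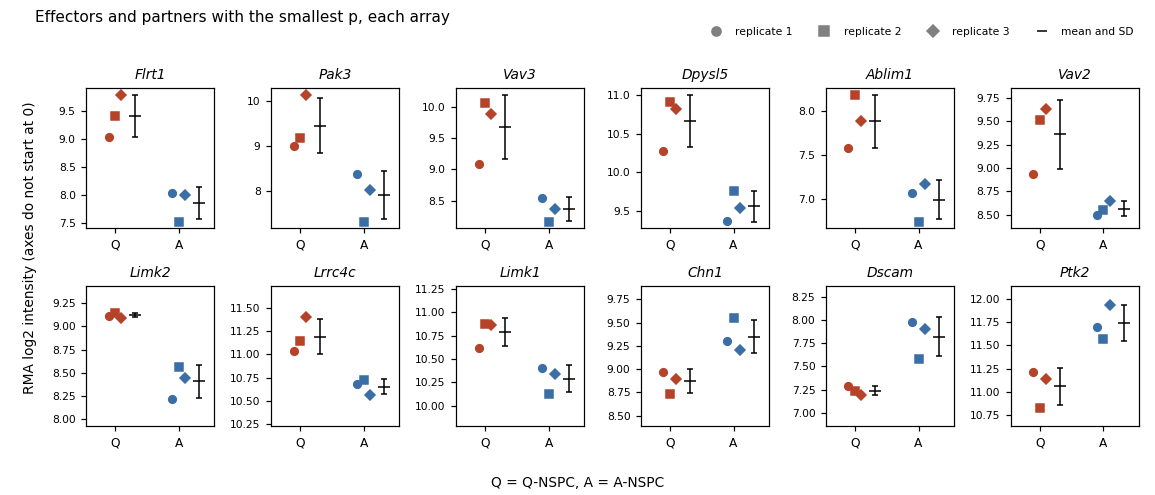
Log2 expression of the 12 guidance effectors and partners with the smallest p, 1 panel per gene, with Q-NSPC arrays to the left of A-NSPC arrays and black marks at the mean and SD of each group. Flrt1 and Pak3 have the largest differences, 1.56 and 1.54, and Ptk2, Dscam and Chn1 are lower in Q-NSPC.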

How the data were processed

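RNA from 3 Q-NSPC and 3 A-NSPC samples was measured on 1-colour arrays. The authors' deposited log2 values, 1 per probe set, had been normalized by RMA, and the submitters' processing notes name Affymetrix Expression Console, RMA and Partek 6.10. Array medians were 7.53 to 7.57, and differences were taken between groups within a probe set. Of 29214 probe sets 18644 carried 1 gene symbol and were used, which left 17245 genes, each by its brightest probe set over all arrays (of the guidance genes, Sema4c alone had more than 1). The genome build was not given in the sources used here. Groups were compared in limma 3.58.1 (R 4.3.3) with lmFit and eBayes, two-sided, with Benjamini-Hochberg adjustment over all genes and no filter, and the code was tested on simulated data. The small number of arrays limits precision. The labels do not state whether same-numbered samples were paired, and the values gave no sign of it. Every guidance gene could be named, with all arrays shown for those under an adjusted p of 0.05. Of the effectors at most 12 by smallest p could be named. Members and lists were chosen with earlier results of these data known. Alternatives covered moderation, weights, dim genes, probe sets, normalization, test, block and left-out arrays.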

Additional observations from a re-analysis of the deposited data

How the results depend on the processing

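No guidance gene that passed reversed under any of the 13 alternatives, but few of these could have reversed one. The groups of every passing gene did not overlap, so leaving out or weighting arrays could not change the sign. Most other alternatives changed the test and left the difference as it was. The unpaired t-test with Benjamini-Hochberg adjustment passed 0 genes in every family and list, higher or lower. With array weights 33 guidance genes passed, 22 higher and 11 lower, with 3 ephrins and 3 Slits and Robos higher and 2 plexins and neuropilins, 1 Eph receptor and 4 netrins and receptors lower, while 4028 of all genes passed (46.5% of guidance genes, 23.4% of all). Among genes with a mean log2 value of 6 or more 29 of 67 passed (43.3%, against 19.0% of all 14013 genes kept), with 2 ephrins higher, and 2 plexins and neuropilins, 1 Eph receptor and 3 netrins and receptors lower. Intensity trend and robust moderation gave 2 plexins and neuropilins and 2 semaphorins lower. The values gave no sign that same-numbered samples were paired (correlations of same-numbered deviations -0.05, 0.01 and -0.03). With so few arrays this cannot settle whether they were. With the replicate block 20 guidance genes passed (28.2%, against 11.8% of all genes), 14 higher and 6 lower, and 19 of them were shared with the unblocked fit. Under it 1 gene of the Slits and Robos and 1 netrin or receptor were higher, and 2 plexins and neuropilins, 2 semaphorins and 2 effectors lower. Quantile normalization repeated gave 2 netrins and receptors higher.

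Leaving out 1 array gave 7 to 21 guidance genes higher and 0 to 12 lower. By family these ranges were 3 to 9 higher and 0 to 5 lower for semaphorins, 0 to 4 and 0 to 3 for plexins and neuropilins, 1 to 3 and 0 to 0 for ephrins, 1 to 1 and 0 to 1 for Eph receptors, 1 to 2 and 0 to 0 for Slits and Robos, 0 to 2 and 0 to 3 for netrins and receptors, and 2 to 16 and 0 to 5 for effectors and partners. Over all guidance genes together, the most passed without Q-NSPC replicate 1 and the fewest without Q-NSPC replicate 3, though not in every family. The cause was not tested. Sema3g, Sema5a, Plxnd1, Neo1 and Ntn4 had the adjusted p nearest under 0.05 among the genes that passed.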

Other observations

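Probe sets outside the gene-level comparison bear on 3 guidance genes, in a fit over all 29214 probe sets. The dimmer Sema4c probe set differed by 0.26 (Q-NSPC minus A-NSPC, log2, limma adjusted p = 0.168), in the direction of the brighter one. A probe set shared by Mrpl43 and Sema4g differed by -0.34 (limma adjusted p = 0.0505), opposite in sign to the probe set of Sema4g alone. A probe set shared by Ntn1 and Mfap1al1 differed by -0.09 (limma adjusted p = 0.542).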
